A study of Arabidopsis thaliana with 30 samples.

Results

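The Arabidopsis genes described here are the circadian clock and a small set of its outputs. They were chosen by locus: 38 of the 37686 genes in the deposited tables. They comprise the MYB repressors CCA1 and LHY, the pseudo-response regulators (PRRs), GI and the evening complex, the REVEILLE (RVE) and LNK genes, the light-sensing F-box genes, the CDF genes with CO, and the outputs GRP7, GRP8, CAT2, CAT3, BBX19 and BAM9. All 38 members reached 1 TPM (a share of a library's transcripts, corrected for length) in at least 2 libraries and were tested. The data are RNA-seq of wild-type Col-0 leaves that regenerate roots after detachment. Seedlings were grown on medium with 1% sucrose at 22 °C for 12 d, in cycles of 16 h light and 8 h dark. The first leaf pair was cut off at the base of the blade, and the blades were kept under continuous 24-h light on B5 medium free of sucrose. One arm had no addition (mock). The other had NPA, an inhibitor of polar auxin transport whose dose is not given in the sources used here. The wounded region was taken at once (T0) or at 6 h, 12 h and 24 h of culture, and on each further day until 5 d, with 2 libraries in each of 15 groups. The labels give no time of day for any sample, and they do not say that the libraries of a group came from separate plants, so p-values measure only the spread between these samples.

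The plant clock is a set of genes that repress one another in sequence through the day. CCA1 and LHY peak around dawn and repress evening genes. The PRR genes follow through the day, and at dusk the evening complex of LUX, ELF4 and ELF3 represses day genes in turn. The loop keeps running in constant light, and it times photosynthesis, starch use, growth and flowering in leaves.

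Several promoters of the members carry short motifs through which clock factors are known to act. The evening element (AAAATATCT) is bound by CCA1, LHY and RVE8. The following stretches are shown because TOC1, FKF1, GRP7 and CAT3 are evening genes on which the results below turn, and the capitals mark the evening element or its reverse complement:
TOC1: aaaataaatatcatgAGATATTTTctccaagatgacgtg
FKF1: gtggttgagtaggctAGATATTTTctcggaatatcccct
GRP7: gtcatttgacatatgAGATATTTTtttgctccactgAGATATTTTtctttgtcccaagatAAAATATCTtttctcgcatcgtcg
CAT3: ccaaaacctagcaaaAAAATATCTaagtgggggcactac

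These stretches lie on TAIR10.1 at chr5:24674797-24674835 on the plus strand (TOC1), chr1:25508438-25508476 on the plus strand (FKF1), chr2:9266565-9266648 on the minus strand (GRP7) and chr1:7142878-7142916 on the plus strand (CAT3). All are read 5′ to 3′ on the strand of the gene, from the RefSeq genome, and lie upstream of the annotated gene start. The evening element was found on either strand in the 300 bases before the start of 9 of 38 members (23.7%): TOC1, PRR5, LUX, BOA, EPR1, FKF1, GRP7, GRP8 and CAT3. It was found in 2.79% of 27437 promoters of the same length. The GRP7 stretch holds 3 matches.

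The second motif was the G-box (CACGTG), a palindrome bound by bZIP and bHLH factors. It is in capitals in these stretches, shown because CCA1, LHY, PRR9 and PRR7 head the morning and day groups:
CCA1: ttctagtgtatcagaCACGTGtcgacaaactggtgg
LHY: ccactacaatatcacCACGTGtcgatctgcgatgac
PRR9: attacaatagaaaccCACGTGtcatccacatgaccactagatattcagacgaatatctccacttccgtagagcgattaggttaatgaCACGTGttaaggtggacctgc
PRR7: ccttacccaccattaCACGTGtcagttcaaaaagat

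Their positions are chr2:19245383-19245418 on the plus strand (CCA1), chr1:37931-37966 on the minus strand (LHY), chr2:19232348-19232455 on the plus strand (PRR9) and chr5:642211-642246 on the minus strand (PRR7). A G-box was found in 11 of 38 members (28.9%) and in 7.09% of all promoters. LUX, BOA, RVE1, RVE2, LNK3, CDF2 and BAM9 were the other members with a match. The CCA1 binding site (AAAAATCT, either strand) was found in 5 members (13.2%), which were PRR5, RVE2, LKP2, AT5G52660 and AT1G69570, and in 7.94% of all promoters. A match is a description of these letters and not a test of binding.

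The libraries were of leaf: RBCS1A, a Rubisco subunit gene, stood at 13583 to 27197 TPM in the 30 libraries. The other leaf markers ranged more widely, CAB1 from 5177 to 29241 TPM, RCA from 1856 to 12310 TPM and LHCB2.1 from 96.3 to 4641 TPM. At T0 alone, LHCB2.1 was at 147 TPM in 1 library and 4641 TPM in the other. Of the root markers, the root-hair gene SHV2 reached at most 0.05 TPM and the root-cap gene SMB at most 1.27 TPM. The phosphate transporter gene PHT1;1 was at 0 to 0.02 TPM at T0 and reached 113 TPM later. The flower markers AG and AP3 and the seed markers CRA1 and OLEO1 stayed under 1 TPM. Between 17201 and 19288 genes reached 1 TPM in a library, and the read depth is unknown. In bulk tissue, fewer cells of a type and less RNA per cell cannot be told apart. The libraries of 1 group often stood far apart in clock genes, so the members are described library by library before any mean is used.

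CCA1 and LHY, the dawn repressors, ranged over more than 1000-fold. On TAIR10.1 CCA1 (AT2G46830) lies at chr2:19245591-19248915 and LHY (AT1G01060) at chr1:33365-37871. CCA1 stood at 318 and 0.13 TPM in T0 libraries 1 and 2. At 6 h it was low in all 4 libraries, at 0.32 and 1.40 TPM in mock and 2.39 and 0.53 TPM with NPA. At 12 h it was at 114 and 14.4 TPM in mock and 8.45 and 136 TPM with NPA. Thus mock library 1 and NPA library 2 were the high ones at 12 h. At 24 h CCA1 was at 12.1 and 2.07 TPM in mock and 2.34 and 10.5 TPM with NPA, and at 2 d at 2.18 and 22.4 TPM in mock and 2.73 and 24.1 TPM with NPA. From 3 d on, the libraries of each time lay close together: 13.2, 14.4, 15.9 and 13.5 TPM at 3 d, 14.7, 15.3, 16.4 and 11.8 TPM at 4 d, and 20.4, 24.4, 22.5 and 28.4 TPM at 5 d. LHY went the same way as CCA1 within 14 of 15 pairs, with 447 and 0.17 TPM at T0, a span of 35.3 to 250.2 TPM at 12 h and a span of 20.4 to 25.2 TPM at 3 d.

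**Figure D1:**
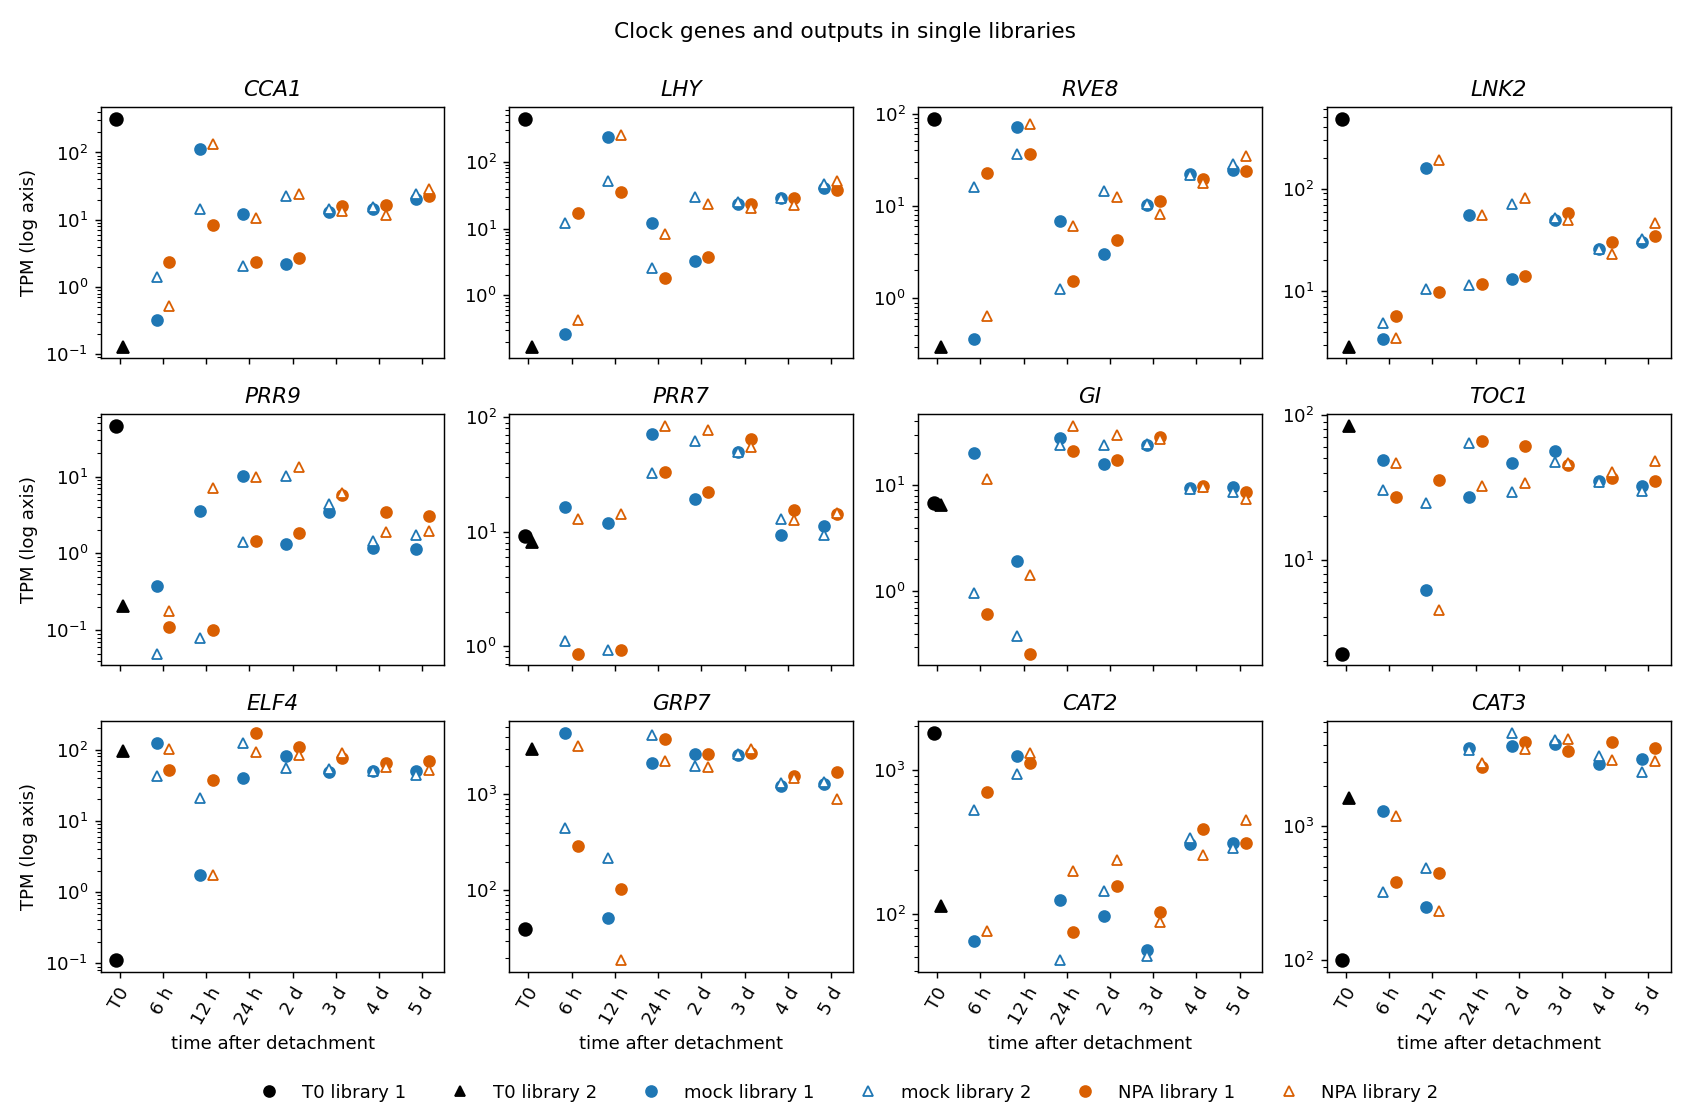
TPM on a log axis against time after detachment for 12 clock and output genes, with each point 1 library (circles library 1, triangles library 2, black T0, blue mock, orange NPA). At 12 h CCA1 spans 8.45 to 136 TPM, and at 3 d its 4 libraries lie between 13.2 and 15.9 TPM.

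The PRR genes repress CCA1 and LHY, and TOC1, the evening member of the family, ran against CCA1. TOC1 (AT5G61380) lies at chr5:24674963-24678550. It stood at 2.25 and 84.3 TPM in T0 libraries 1 and 2. At 6 h it was at 48.6 and 30.2 TPM in mock and 27.3 and 46.5 TPM with NPA, and at 12 h at 6.19 and 24.7 TPM in mock and 35.6 and 4.53 TPM with NPA. At 24 h TOC1 was at 26.9 and 63.7 TPM in mock and 65.8 and 32.3 TPM with NPA. In each of these pairs the library with less CCA1 had more TOC1. CCA1 exceeded TOC1 in 3 libraries: T0 library 1, mock 12 h library 1 and NPA 12 h library 2.

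The day members of the PRR family did not share a peak library. PRR9 (AT2G46790), the earliest of the series, was at 45.9 TPM in T0 library 1 and at 0.21 TPM in T0 library 2, and lay between 0.05 and 0.38 TPM in the 4 libraries of 6 h. PRR7 (AT5G02810), the next in the sequence, was at 9.11 and 8.21 TPM at T0, so that the libraries differed little in this gene. It stood at 16.4 and 1.11 TPM in mock and 0.86 and 13.01 TPM with NPA at 6 h, and at 71.2 and 32.7 TPM in mock and 33.4 and 84.8 TPM with NPA at 24 h. PRR7 was at 19.3 TPM or more in every library from 24 h to 3 d and at 16.4 TPM or less in every other library. PRR5 (AT5G24470) was at 0.09 and 8.87 TPM at T0 and at 0.49 to 7.39 TPM at 12 h, and it reached 50.2 TPM in NPA library 2 at 2 d. PRR3, known for stabilising the TOC1 protein, was at 0.06 and 37.8 TPM at T0.

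GI (AT1G22770), whose protein steadies the F-box protein ZTL and promotes flowering, was also alike in the T0 libraries. It was at 6.78 and 6.46 TPM at T0. At 6 h it stood at 20.1 and 0.97 TPM in mock and at 0.61 and 11.6 TPM with NPA, and in all 4 libraries of 12 h it was at 0.26 to 1.93 TPM. At 24 h it was at 21.0 to 36.5 TPM. In the evening complex, ELF4 (AT2G40080) was at 0.11 and 94.1 TPM at T0, at 1.72 and 20.8 TPM in mock and 37.96 and 1.76 TPM with NPA at 12 h, and at 40.5 to 173 TPM at 24 h. LUX (AT3G46640), the DNA-binding subunit, had a narrower range, from 7.96 to 42.8 TPM over the 30 libraries. BOA, a close relative of LUX, was at 0.28 and 28.3 TPM at T0 and at most 5.88 TPM afterwards. ELF3, the scaffold of the complex, was at 1.59 and 40.1 TPM at T0.

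The RVE and LNK genes act together, with RVE8 and its relatives binding DNA and LNK proteins serving as coactivators of evening genes. RVE8 (AT3G09600) was at 87.9 and 0.30 TPM at T0, at 0.36 and 15.9 TPM in mock and 22.8 and 0.65 TPM with NPA at 6 h, and at 36.2 to 77.8 TPM in the 4 libraries of 12 h. LNK2 (AT3G54500) was at 484 and 2.87 TPM at T0 but low in all 4 libraries of 6 h, at 3.41 to 5.74 TPM. At 12 h LNK2 stood at 159 and 10.5 TPM in mock and 9.75 and 190 TPM with NPA. RVE8 was therefore already high in 2 of 4 libraries at 6 h, while LNK2 was low in all 4. LNK1, LNK3 and LNK4 also peaked in T0 library 1, at 139, 187 and 166 TPM. RVE2, in contrast, was higher in T0 library 2, at 115 against 30.5 TPM, and had its lowest level, 7.89 TPM, in mock library 1 of 24 h.

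The F-box and CDF genes link the clock to flowering: FKF1 degrades CDF proteins, which repress CO. FKF1 (AT1G68050) was at 0.02 and 19.6 TPM at T0 and at 0.07 and 1.64 TPM in mock and 3.29 and 0.09 TPM with NPA at 12 h, against 13.8 to 32.2 TPM at 24 h. CDF1 ran the other way at T0, with 66.1 and 9.19 TPM. ZTL, which degrades TOC1 and PRR5 proteins, LKP2, a relative of ZTL, and LWD1, a WD-repeat clock protein, varied by less than 2-fold between the highest and the lowest of the 30 libraries. They were the only 3 members to do so, and ZTL ranged from 19.8 to 29.99 TPM. CO was low in all libraries, at 0.72 to 3.76 TPM. AT1G69570, a Dof-type zinc finger gene, shares 1241 bases with a gene on the other strand (AT1G69572, 0.27 to 5.90 TPM). RVE1 shares 225 bases with AT5G17305 (0 to 64.0 TPM). Whether the counting used strand is not given in the sources used here, so reads of such neighbours cannot be told apart.

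The outputs held the most abundant transcripts of the set. GRP7 (AT2G21660), an RNA-binding protein gene that feeds back on its own splicing, was at 39.3 and 2944 TPM at T0. It stood at 4412 and 445 TPM in mock and 291 and 3169 TPM with NPA at 6 h, and at 18.7 to 219 TPM at 12 h. All 4 libraries of 12 h thus lay under all 4 of 6 h, and at 24 h GRP7 was back at 2116 to 4128 TPM. CAT2 (AT4G35090), a leaf catalase gene known for morning expression, and CAT3 (AT1G20620), an evening catalase gene, exchanged rank. CAT2 exceeded CAT3 in 7 libraries: T0 library 1, mock library 2 and NPA library 1 of 6 h, and all 4 libraries of 12 h. At 12 h CAT2 was at 932 to 1301 TPM and CAT3 at 234 to 490 TPM, and at 24 h CAT2 was at 47.4 to 199 TPM and CAT3 at 2771 to 3815 TPM. BAM9 (AT5G18670), of the beta-amylase family, was at 465 and 18.1 TPM at T0 and at 63.4 to 131 TPM at 12 h.

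**Figure D2:**
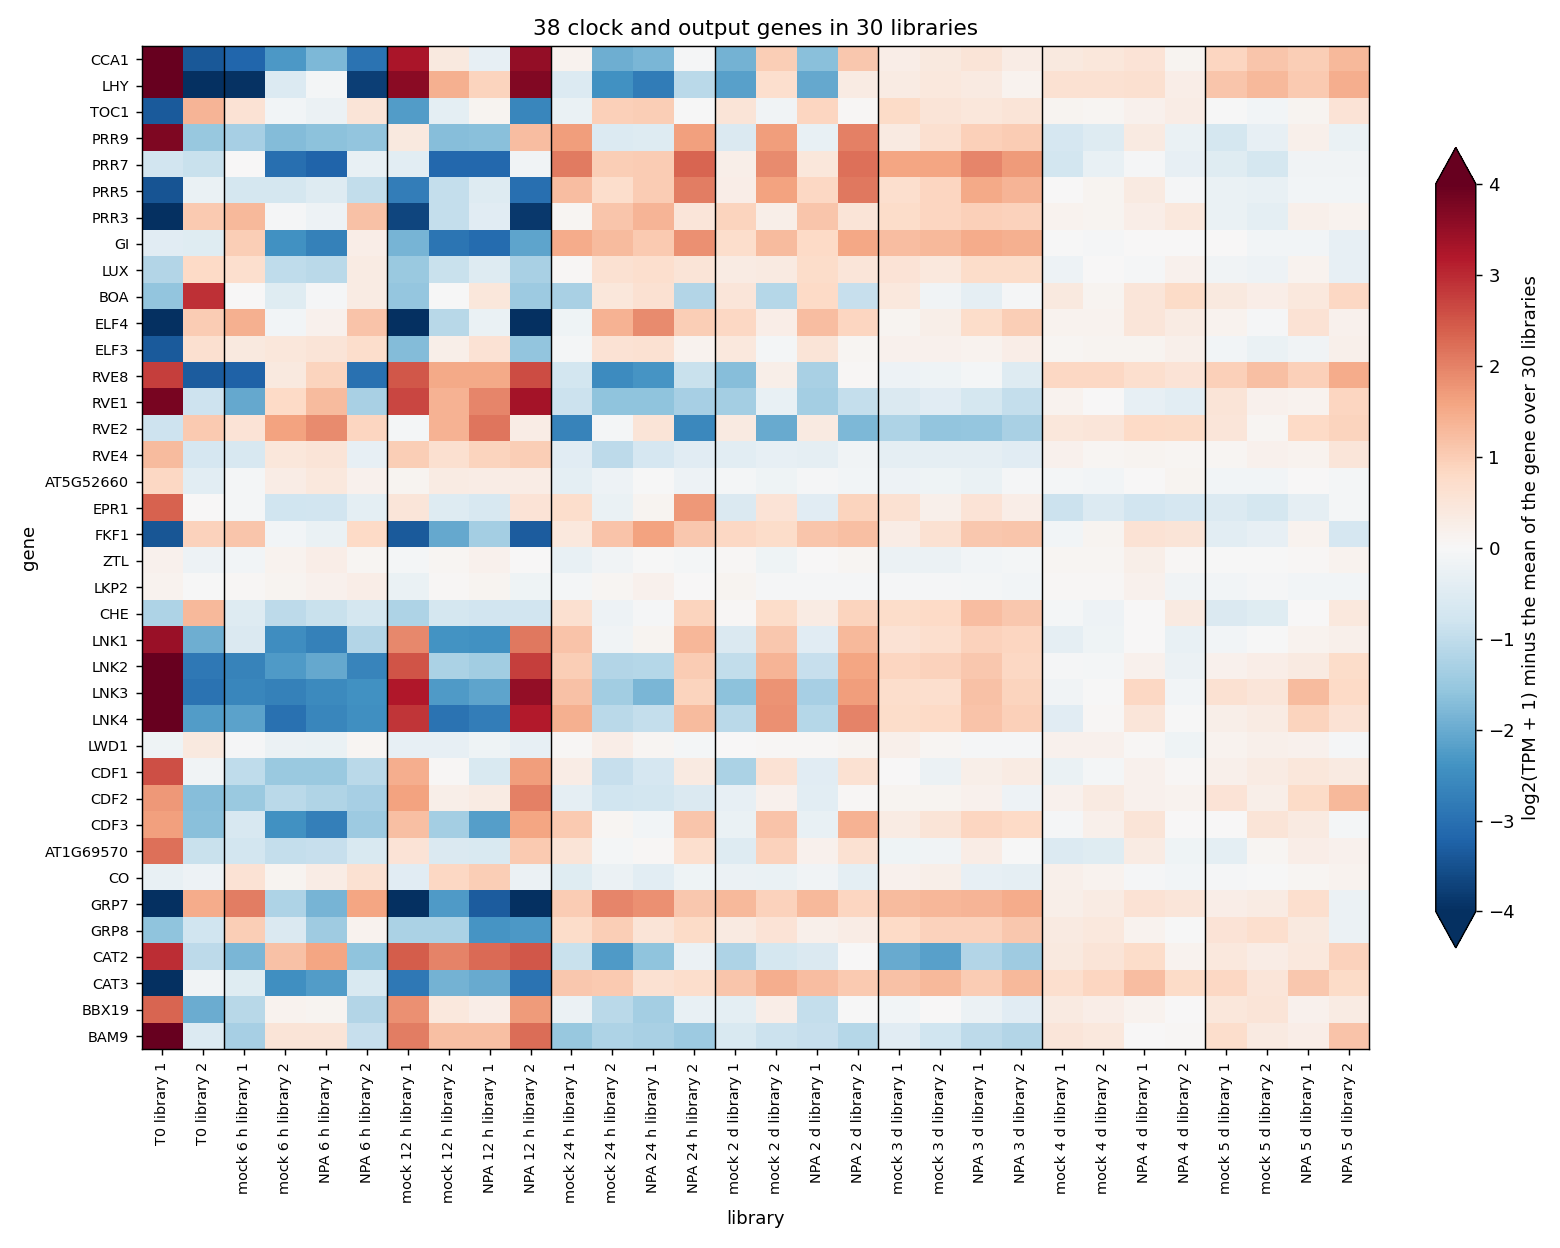
Colour shows log2(TPM + 1) minus each gene's mean over 30 libraries, for 38 genes (rows) in the 30 libraries (columns, with lines between times). The 2 libraries of a group differ in many rows from T0 to 2 d and look alike from 3 d on, where no member differs more than 2-fold on the log2(TPM + 1) scale.

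The members not yet described ranged as follows over the 30 libraries. RVE1 and RVE4, MYB relatives of RVE8, spanned 0.78 to 103 TPM and 18.2 to 94.4 TPM, EPR1 1.67 to 23.8 TPM and AT5G52660 7.70 to 19.3 TPM. CDF2 spanned 1.54 to 32.4 TPM, CDF3 2.12 to 63.8 TPM and AT1G69570 0.40 to 11.5 TPM. CHE ranged from 7.68 TPM in T0 library 1 to 48.7 TPM in T0 library 2. BBX19, a B-box protein gene, spanned 0.68 to 32.2 TPM, both ends at T0. GRP8, a close relative of GRP7, spanned 105 to 1141 TPM, with its 4 lowest values in T0 library 1, NPA library 1 of 6 h and the NPA libraries of 12 h.

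Across the set, the ratio of the highest to the lowest library in TPM exceeded 10-fold in 30 members, 100-fold in 16 and 1000-fold in 4 (CCA1, LHY, ELF4 and FKF1). T0 library 1 held the highest level of 18 members. Neither count was made for all genes. The median span in log2(TPM + 1) was 4.85 for the members and 1.46 for all genes tested. The largest ratios rest on lowest values near 0 TPM: FKF1, with 0.02 TPM, spanned 5.02 on this scale, less than GRP7 at 7.81. Of the 38 members, 31 were more than 2-fold apart (on the log2(TPM + 1) scale) between the T0 libraries, 19 of them higher in library 1 and 12 in library 2. Of all 20654 genes tested 19.4% were, 6.77% higher in library 1 and 12.6% in library 2. At 6 h the count was 19 in mock (4.35% of all genes) and 18 with NPA (3.89%). At 12 h it was 26 in mock (3.92%) and 27 with NPA (5.61%), and at 24 h 16 (2.72%) and 18 (3.93%). At 2 d it was 17 (3.83%) and 15 (3.89%). From 3 d to 5 d no member was more than 2-fold apart in any of the 6 pairs on this scale, against 1.48%, 1.57%, 1.53%, 2.08%, 2.41% and 3.61% of all genes in mock and NPA on these days, in order of time. The median absolute difference of the members was 3.99 (log2) at T0, beside 0.41 for all genes, and 0.09 to 0.34 from 3 d to 5 d, beside 0.09 to 0.18. Without the pseudocount, LNK3 was just over 2-fold apart in the NPA pair of 4 d, at 16.0 and 7.75 TPM.

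**Figure D3:**
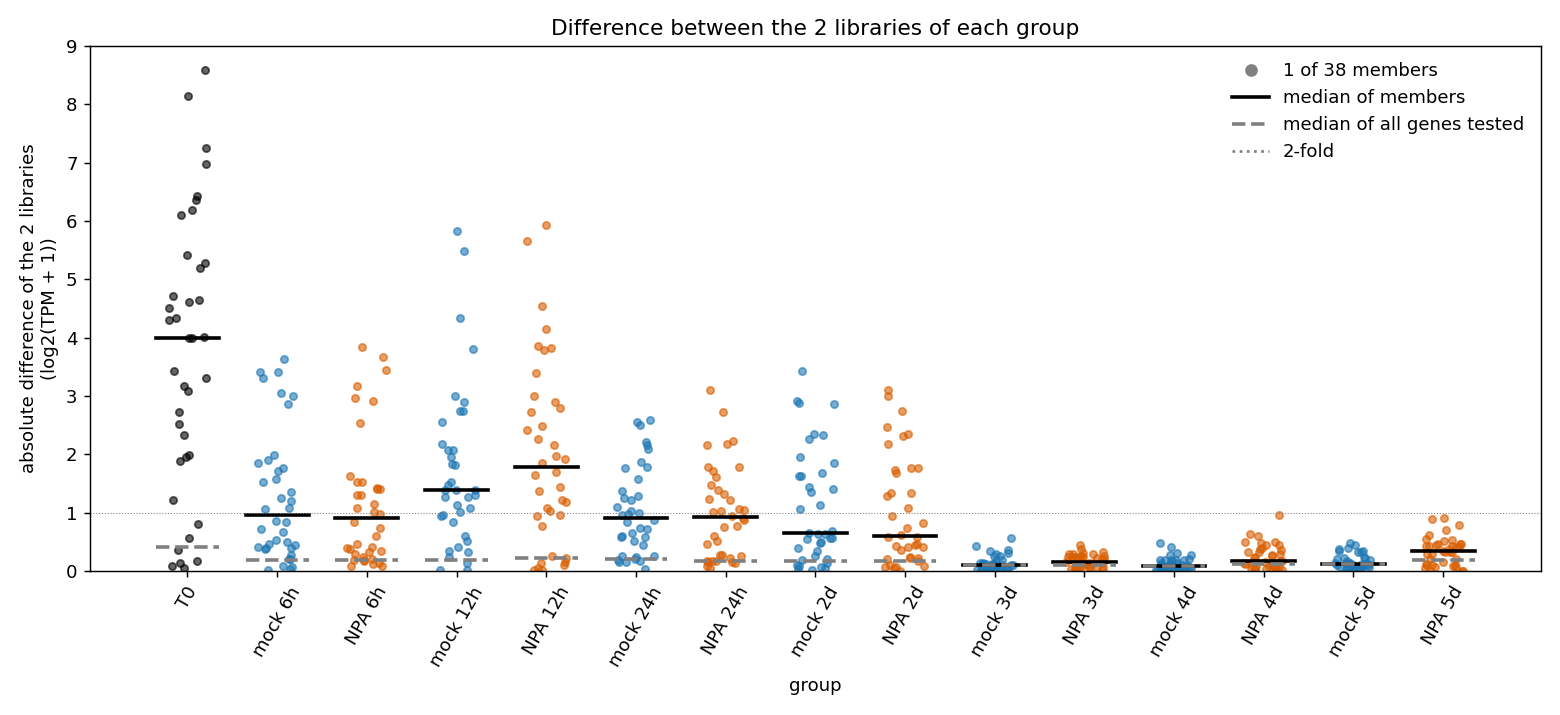
Absolute difference between the 2 libraries of each group, in log2(TPM + 1), for the 38 members (points), with the medians of the members (black lines) and of all genes tested (grey dashed lines). The members' median falls from 3.99 at T0 to 0.09 in mock at 4 d, and every point from 3 d on lies under the dotted 2-fold line.

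Some members went with CCA1 between the libraries of a group, some went against it and others were mixed. CCA1 itself differed more than 2-fold in 8 pairs: T0, NPA at 6 h, and both media at 12 h, 24 h and 2 d. LHY, RVE8, RVE1, RVE4, LNK2, CDF2, CAT2 and BBX19 had the sign of CCA1 in all 8 (8 of 37 members, against 1.64% of all genes). TOC1, PRR3, BOA, ELF4, ELF3 and GRP7 had the opposite sign in all 8 (6 of 37, against 9.50%). PRR9, PRR7, GI, LNK1, LNK3, LNK4, EPR1, CDF1, CDF3 and AT1G69570 shared the sign in 7 pairs, and LUX, FKF1, RVE2, LKP2 and CO opposed it in 7. The remaining 8 were mixed: GRP8 and BAM9 had 4 pairs each way, PRR5 and CHE shared the sign in 5 of 8, ZTL and CAT3 in 3, and AT5G52660 and LWD1 in 2. The pairs are not independent of each other, and the signs are a description.

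The libraries of mock and NPA that resembled each other had crossed numbers at first. Over the 38 members, mock library 1 and NPA library 2 differed by a mean of 0.29, 0.28 and 0.28 (log2) at 6 h, 12 h and 24 h. Mock library 2 and NPA library 1 differed by 0.22, 0.33 and 0.22, whereas the libraries of 1 group differed by 1.00 to 2.00. At 2 d the same numbers went together: 0.23 for library 1 and 0.25 for library 2 of the media, against 1.09 and 1.01 within the groups. T0 library 1 was nearest to NPA library 2 of 12 h, at 0.79, and T0 library 2 to NPA library 2 of 6 h, at 0.52, while the T0 libraries differed from each other by 3.71. Between 24 h and 2 d in mock, libraries with crossed numbers were the closer ones, at 0.32 (library 1 of 24 h and library 2 of 2 d) and 0.36, against 0.99 and 1.17 for libraries with the same number.

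Few members passed the test against T0, and the count depended on which T0 library was used. Over mock at 24 h to 5 d, 5 of 38 members were called against T0 at an adjusted p under 0.05 (limma over all genes), beside 58.9% of all genes (46.5% higher and 12.3% lower). PRR5, GRP8 and CAT3 rose by 2.36 ± 0.66, 1.84 ± 0.33 and 3.16 ± 0.66 (log2 fold change ± SE), and EPR1, a MYB gene of the RVE family, and BAM9 fell by 1.33 ± 0.52 and 2.1 ± 0.72, with a median of 0.32 over all genes. The count was 28 without T0 library 2 and 8 without T0 library 1, where BAM9 had the opposite sign. It was 11 (3 higher and 8 lower) under TMM or quantile scaling, and of the 5 calls GRP8 alone passed whichever library was left out. The split of all 20654 genes against T0 also moved, to 5942 higher and 4972 lower (TMM) or 5061 and 6067 (quantile). At 6 h against T0 it was 3975 higher and 3149 lower (TMM) or 3331 and 3527 (quantile). In the first 6 h, over both media, 3 of 38 members passed, beside 38.9% of all genes (30.8% higher and 8.18% lower, with a median of 0.20). GRP8 rose by 0.98 ± 0.37, and EPR1 and CDF1 fell by 1.69 ± 0.59 and 2.48 ± 0.70. That count was 28 without T0 library 2, 5 without either NPA library of 12 h, and 4 (all lower) under TMM or quantile scaling, and none of the 3 calls passed whichever library was left out.

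From 6 h to 12 h CCA1, LHY, RVE8, RVE1 and RVE4 were among the members that rose, and GRP7 and FKF1 among those that fell. Over both media, with 4 libraries a time, 14 of 38 members were called, beside 32.3% of all genes, so that the total was near that of all genes. At both times mock library 1 resembled NPA library 2, and mock library 2 resembled NPA library 1. The fit did not use these sets, so SE and p-values do not measure the spread of 4 independent libraries. In the other tests with libraries of 6 h to 2 d the sets were likewise not used. The 9 that rose (6.67% of all genes did) were CCA1, LHY, RVE8, RVE1, RVE4, CDF1, CDF2, CAT2 and BAM9. CCA1 rose by 4.27 ± 1.29 (log2, adjusted p = 0.018, limma) and LHY by 4.49 ± 1.38. The 5 that fell (25.7% of all genes did) were PRR3, ELF4, FKF1, GRP7 and GRP8, with GRP7 at -4.06 ± 1.03 and FKF1 at -2.91 ± 0.64. The 2 shares of all genes depended on the scaling. Under TMM or quantile scaling 9 members again rose and 5 fell. Of 20654 genes, 2469 rose and 2910 fell under TMM scaling, and 2259 rose and 3100 fell under quantile scaling. The evening genes TOC1, GI, LUX, BOA and ELF3 did not pass, nor did RVE2, AT5G52660 and EPR1. FKF1, CDF2, GRP7 and GRP8 passed whichever single library was left out. The count was 4 without mock library 1 or NPA library 2 of 12 h, 5 without mock library 1 or NPA library 2 of 6 h, and 22 without either T0 library.

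From 12 h to 24 h GI, PRR7, GRP7 and CAT3 were among the members that rose, and LHY, RVE8 and CAT2 among those that fell. Both steps share the 12 h libraries. At 24 h the libraries fell into the same crossed sets, which the fit did not use, so SE and p-values have the same limit. Of 38 members 23 were called, beside 40.2% of all genes, 12 higher (30%) and 11 lower (10.1%). In the deposited values, the number that rose was thus near the share of all genes. This depended on the scaling. Under TMM or quantile scaling 11 members rose and 12 fell. Of 20654 genes, 3306 rose and 3243 fell under TMM scaling, and 3429 rose and 3109 fell under quantile scaling. Of the day and evening genes PRR7, PRR5, PRR3, GI, LUX, ELF4 and FKF1 rose, and TOC1, PRR9, BOA and ELF3 did not pass. CCA1, which had risen in the step before, did not pass either, nor did any LNK gene. The others that rose were CHE, a TCP factor known to bind the CCA1 promoter, LWD1, GRP7, GRP8 and CAT3. GI rose by 3.89 ± 0.59 (adjusted p = 0.000276, limma), GRP7 by 5.40 ± 1.03 and CAT3 by 3.28 ± 0.61. LHY, RVE8, RVE1, RVE2, RVE4, AT5G52660 (a homeodomain-like gene), CDF2, CO, CAT2, BBX19 and BAM9 fell. CAT2 fell by 3.54 ± 0.77 and RVE1 by 3.69 ± 0.78. Of these calls 12 passed whichever library was left out, and the count was 14 without mock library 2 of 24 h. Of 32 further loci related to the clock and light signalling, 12 rose and 9 fell (30% and 10.1% of all genes), among them PHYA (AT1G09570), a phytochrome gene, at 0.55 ± 0.09. In other tests of the fit to 30 libraries, 8 of these loci rose and 1 fell against T0 (46.5% and 12.3% of all genes). At 6 h 6 rose and 0 fell (30.8% and 8.18%), and from 6 h to 12 h 3 rose and 9 fell (6.67% and 25.7%). Along the days 7 rose and 0 fell (23.7% and 12.9%). For NPA 1 was higher and 3 were lower (6.60% and 30.6%). For a difference in slope 1 passed (5.76%), and for a difference between times 1 passed (5.86%).

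Along the days, the mean slope from 24 h to 5 d over both media passed in 10 of 38 members, beside 36.6% of all genes (23.7% higher and 12.9% lower). RVE8, RVE2, RVE4, CDF2, CAT2 and BAM9 rose and PRR7, PRR5, GI and EPR1 fell. The slopes ran from 0.22 ± 0.07 (RVE4) to 0.69 ± 0.24 (RVE8) log2 per day upward and from -0.28 ± 0.11 (EPR1) to -0.55 ± 0.18 (PRR7) downward. A slope need not be a steady course. Means of 4 libraries from 24 h to 5 d were 3.91, 8.51, 10.07, 20.3 and 27.95 TPM for RVE8, rising each day. For PRR7 they were 55.5, 45.3, 54.8, 12.5 and 12.4 TPM, with the fall between 3 d and 4 d. BAM9, at 0.51 ± 0.15 per day, was the call that passed whichever library was left out. The count was 16 without either T0 library, 3 without NPA library 2 of 5 d, 4 without either mock library of 5 d, NPA library 1 of 5 d or NPA library 2 of 24 h, 5 without mock library 1 of 24 h, and 6 without mock library 2 of 24 h or NPA library 2 of 2 d.

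The days with close libraries were also compared alone, a choice made after the pairs had been seen. The members' libraries were close on these days, and the same closeness set the spread of the test. Calls among members were thus favoured by the choice. In the 12 libraries of 3 d to 5 d alone, 24 of 38 members differed between 4 d and 3 d over both media, 8 higher and 16 lower, beside 30.8% of all genes (17.0% higher and 13.8% lower). The median of the members was -0.23 (log2), beside 0.01 for all genes. PRR7 was at 50.1, 49.9, 64.6 and 54.7 TPM at 3 d (mock libraries 1 and 2, then NPA libraries 1 and 2) and at 9.34, 12.8, 15.4 and 12.6 TPM at 4 d. The groups do not overlap, and PRR7 fell by 2.06 ± 0.11 (adjusted p = 2.23e-05, limma). GI was at 24.0, 24.7, 28.5 and 27.0 TPM at 3 d and at 9.35, 9.30, 9.76 and 9.58 TPM at 4 d, without overlap, and fell by 1.36 ± 0.06. CAT2 went the other way, from 56.4, 51.3, 103 and 87.1 TPM to 304, 335, 390 and 257 TPM, and rose by 2.14 ± 0.15.

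By role, the step from 3 d to 4 d took in 5 of 5 PRR genes (TOC1, PRR9, PRR7, PRR5 and PRR3) and 4 of 4 LNK genes, all lower. In the evening group GI and LUX fell. Of the RVE group RVE8, RVE1, RVE2 and RVE4 rose and EPR1 fell, with RVE2 at 22.9, 17.8, 18.2 and 21.9 TPM at 3 d and 75.9, 77.2, 97.1 and 94.7 TPM at 4 d (2.04 ± 0.11). ZTL rose by 0.27 ± 0.05, FKF1 fell by 0.50 ± 0.16 and CHE fell by 0.94 ± 0.10. Of the outputs CAT2, BBX19 and BAM9 rose and GRP7 and GRP8 fell, GRP7 from 2552, 2658, 2698 and 2963 TPM to 1237, 1330, 1574 and 1478 TPM. CCA1 and LHY did not pass, at 0.02 ± 0.12 (adjusted p = 0.904, limma) and 0.22 ± 0.12 (adjusted p = 0.187). The 4 libraries of each day did not overlap in 8 members that were higher at 4 d (12.2% of all genes) and 13 that were lower (11.4%). Of the 24 calls 20 passed whichever library was left out, and FKF1, RVE1, LNK3 and TOC1 did not. In the fit to all 30 libraries, whose spread includes the earlier pairs, 0 members passed. Among the 32 further loci 10 rose and 7 fell (17.0% and 13.8% of all genes). COL1 (AT5G15850), a relative of CO, was at 1.83 ± 0.08 and PIF4 (AT2G43010), a growth-promoting bHLH gene, at -1.75 ± 0.08.

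From 4 d to 5 d no member passed (0 of 38, limma on the 12 libraries, beside 0.315% of all genes). An unadjusted p under 0.05 was found for 15 members. The share of all genes at that level was not counted, so this number has no background. CCA1, LHY, RVE8, RVE1, LNK2 and CDF1 were higher in all 4 libraries of 5 d than in all 4 of 4 d, beside 1.67% of all genes, and PRR5 was lower in all 4, beside 1.42%. LHY was at 28.9, 28.6, 29.1 and 22.4 TPM at 4 d and 40.6, 46.3, 38.7 and 52.5 TPM at 5 d, a difference of 0.69 ± 0.12 (adjusted p = 0.0601, limma). The count was 5 without NPA library 1 of 5 d.

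**Figure D4:**
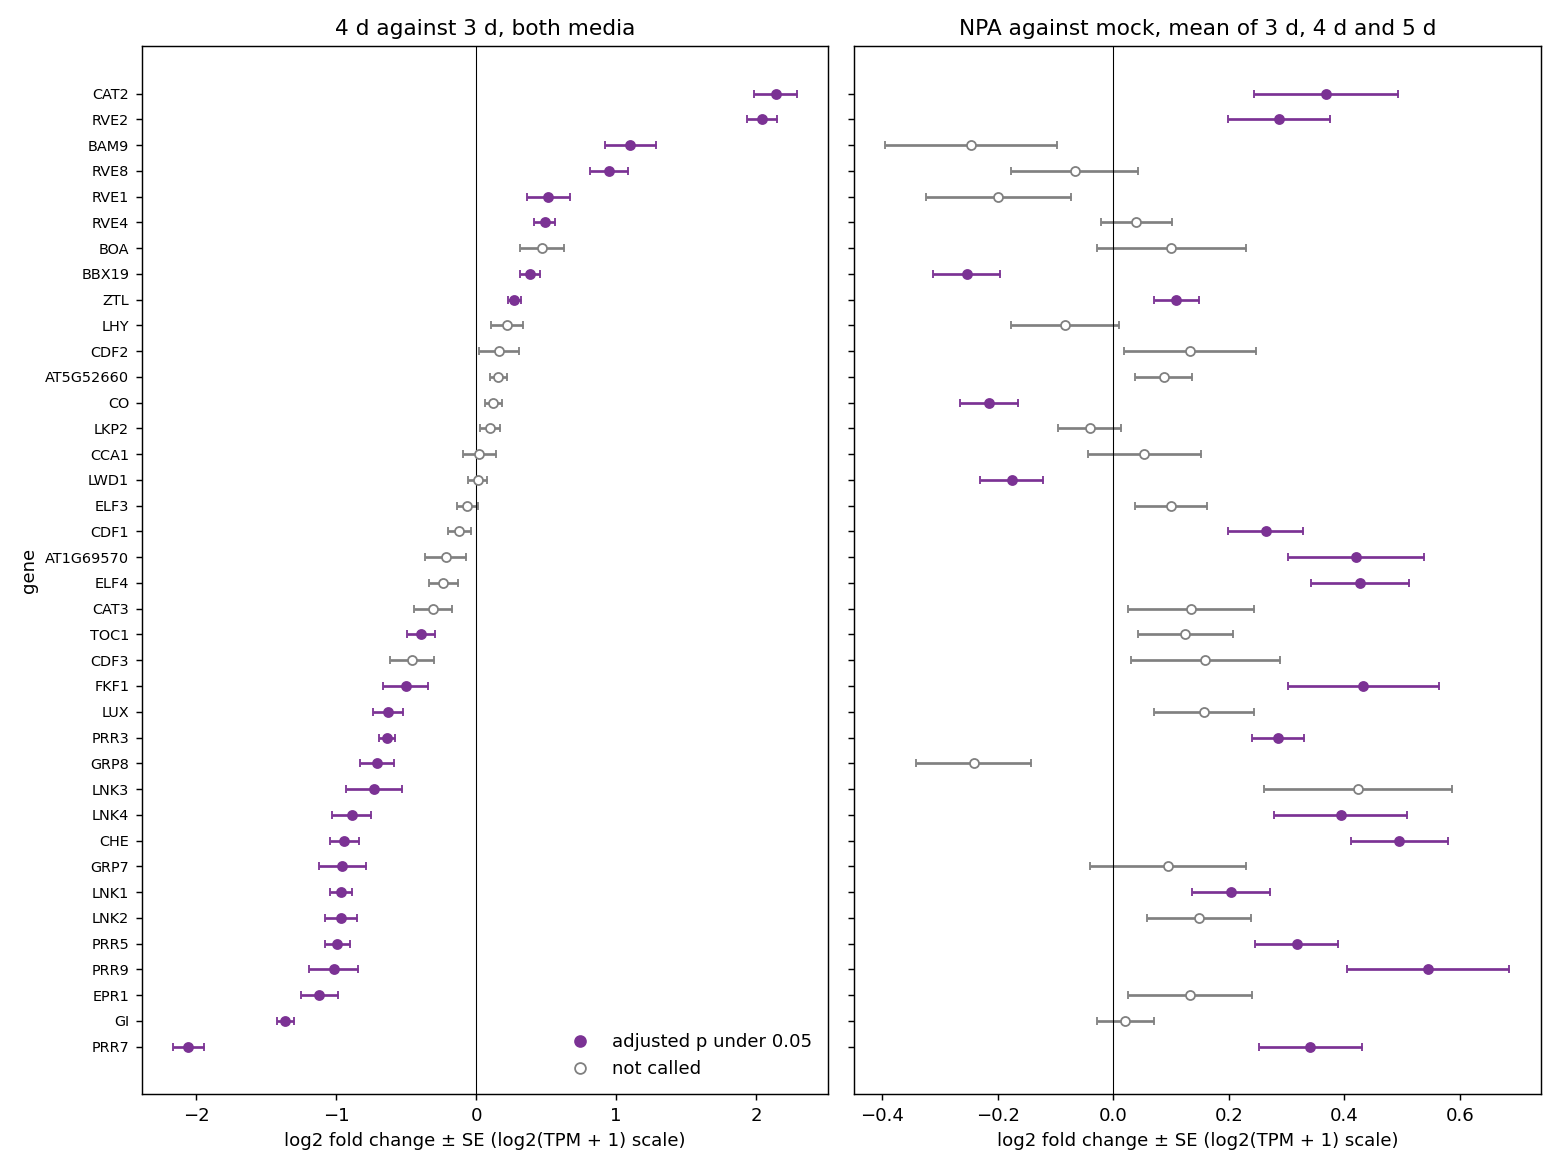
Log2 fold changes with SE on the log2(TPM + 1) scale for the 38 members in the 12 libraries of 3 d to 5 d: 4 d against 3 d over both media (left) and NPA against mock (right), with filled points for an adjusted p under 0.05 (limma). PRR7 lies lowest on the left at -2.06 and CAT2 highest at 2.14, while no difference on the right exceeds 0.55.

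Few members passed the test for NPA over the whole course, a fit whose spread includes the differences within the early pairs. Over all 7 times, ZTL was higher with NPA by 0.13 ± 0.05 and GRP8 lower by 0.43 ± 0.16 (adjusted p = 0.0356 and 0.0433, limma), so that 2 of 38 members passed beside 37.2% of all genes (6.60% higher and 30.6% lower). GRP8 did not pass under TMM or quantile scaling, where the 2 calls were both higher with NPA. Neither call held without each library, and 1 or 0 members passed in 25 of the 30 leave-outs. No member passed for a difference in slope between media (0 of 38, limma, beside 5.76%) or for a difference between times in the NPA effect (0 of 38, limma, beside 5.86%), with 0 at an unadjusted p under 0.05 in each.

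Since mock and NPA libraries from 6 h to 2 d resembled each other in sets, each NPA library was also set beside the mock library of its time that was nearest over the members. This was chosen after the values were seen, the members themselves define the 8 matches, and no test was made. BOA, ELF3, RVE2 and CAT2 were higher with NPA in all 8 matches (4 of 38 members, against 3.87% of all genes), and BBX19 was lower in all 8 (1 of 38, against 15%). RVE2 was at 207 against 171 TPM and 102 against 81.5 TPM at 6 h, and at 246 against 147 TPM and 67.7 against 52.6 TPM at 12 h (NPA against mock). At 24 h it was at 79.1 against 52.7 TPM and 8.36 against 7.89 TPM, and at 2 d at 71.9 against 70.6 TPM and 15.1 against 13.03 TPM. The sizes varied from match to match, and within each medium the libraries of 24 h differed more than the matches did.

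Among the 12 libraries of 3 d to 5 d, 17 of 38 members differed between NPA and mock, 14 higher and 3 lower, beside 48.9% of all genes (11.0% higher and 37.9% lower). This comparison was also chosen after the pairs had been seen, and the closeness of the members' libraries again favoured calls among them. The median of the members was 0.13 (log2), beside -0.12 for all genes. PRR9, PRR7, PRR5, PRR3, ELF4, RVE2, FKF1, ZTL, CHE, LNK1, LNK4, CDF1, AT1G69570 and CAT2 were higher. CHE was at 33.2, 34.4, 18.3, 16.8, 12.7 and 13.5 TPM in mock (2 libraries a day from 3 d to 5 d) and at 46.7, 42.5, 19.8, 25.0, 19.9 and 26.6 TPM with NPA. Both NPA libraries were above both mock libraries at each time, and the mean difference was 0.50 ± 0.08 (adjusted p = 0.00159, limma). This was not so for every call. FKF1 was at 5.93 TPM in NPA library 2 of 5 d, under 7.09 and 7.78 TPM in mock. CAT2 was at 257 TPM in NPA library 2 of 4 d, under 304 and 335 TPM in mock. PRR9 was higher by 0.55 ± 0.14, ELF4 by 0.43 ± 0.09 and PRR3 by 0.29 ± 0.05. CO, LWD1 and BBX19 were lower, by 0.22 ± 0.05, 0.18 ± 0.06 and 0.25 ± 0.06, and none of these 3 passed under TMM or quantile scaling, which turned CO (quantile) and LWD1 (TMM) to the other sign.

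Under TMM or quantile scaling, 23 or 22 members were higher with NPA and 0 lower. Of all 20654 genes, 5592 were then higher and 3917 lower (TMM), or 5403 higher and 4470 lower (quantile). The median of all genes moved to 0.05. Of the 17 calls 9 passed whichever library was left out: PRR9, PRR7, PRR5, PRR3, ELF4, CHE, CDF1, CO and BBX19. The count was 10 without NPA library 1 of 3 d or mock library 1 of 4 d and 11 without mock library 1 of 3 d, and it was 0 in the fit to all 30 libraries. The step from 3 d to 4 d did not pass for a difference between media in any member (0 of 38, limma, beside 0.358% of all genes). PRR5 and CAT2 had an unadjusted p under 0.05, a level at which all genes were not counted. Of the 32 further loci 7 were higher and 7 lower with NPA (11.0% and 37.9% of all genes). AT2G34140 was at -1.24 ± 0.07 and PIF4 (AT2G43010) at 0.53 ± 0.07.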

How the data were processed

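The authors deposited TPM values in 2 tables. Per the submitters' processing notes, RSEM 1.3.2, STAR 2.7.2b and Trim Galore 0.5.0 were used with build TAIR10. Both tables hold the same T0 columns, which entered once. Of 435 pairs of libraries 0 were identical. Columns summed to 999999 to 1000001, so TPM holds no depth and no counting interval is given. The members, lists and comparisons were chosen with earlier results of these data known. A gene was tested if 2 or more libraries reached 1 TPM (20654 genes). A mean for each of 15 groups was fitted to log2(TPM + 1) by limma 3.58.1 (R 4.3.3, moderated with a mean-variance trend), which left 15 residual degrees of freedom (prior 2.33). The fit to the 12 libraries of 3 d to 5 d, added after the data were seen, had 6 (prior 2.19). Tests were two-sided, with Benjamini-Hochberg adjustment over every gene tested. Where a library was left out, the lone sample of its group was taken to vary like the others. All 38 members are accounted for, with full values for those the account turns on, and at most 2 of 32 further loci are named per test. Fold changes on this scale understate the change of low genes. Alternatives were other pseudocounts (0.1, 5), other filters (none, mean TPM from 5), scaling by trimmed means of M-values (TMM) or by quantiles, no trend, a replicate block, and each library left out in turn. Promoters came from the RefSeq genome (TAIR10.1).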

Additional observations from a re-analysis of the deposited data

How the results depend on the processing

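The sign of a called member turned in 3 cases: BAM9 against T0 without T0 library 1 (0.20, and -4.41 without T0 library 2), LWD1 for NPA at 3 d to 5 d under TMM scaling (0.015) and CO there under quantile scaling (0.092). Counts that moved by more than 1.5 times were, against T0, 11 members over 24 h to 5 d under TMM scaling and 11 under quantile scaling, and 5 at 6 h with a pseudocount of 5. With a mean TPM of at least 5, a filter that leaves fewer genes, the slope difference between media had 298 genes (1189 before), NPA by time 315 (1210) and the 3 d to 4 d difference between media 12 (74). The mean NPA difference had 1 member with no filter. With a pseudocount of 0.1, 1 member was more than 2-fold apart within a pair of 3 d to 5 d. In the fit to all 30 libraries, 4 d against 3 d had 0 members and 1841 genes, NPA at 3 d to 5 d 0 members and 6256 genes, and 5 d against 4 d 138 genes. That last comparison, with 65 genes and 0 members, had 23 genes with a pseudocount of 0.1, 174 genes and 2 members with 5, 216 genes and 1 member with no filter, 3 genes with a mean TPM of at least 5, 107 under TMM scaling, 152 genes and 1 member under quantile scaling, and 39 with no trend. The cause was not tested.

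Deviations of mock and NPA libraries with the same number correlated across all genes with r = -0.57, -0.58, -0.36, 0.33, 0.05, -0.14 and -0.14 from 6 h to 5 d (over genes, which are not independent), so a number did not mark the same set at all times: the sign was negative up to 24 h and positive at 2 d. With a replicate block, 5, 3, 14, 22, 8 and 1 members were called against T0, at 6 h, 12 h and 24 h, for the slope and for NPA, 22 for 4 d against 3 d, 15 for NPA at 3 d to 5 d, and 5 genes for 5 d against 4 d.

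Leaving out each library in turn gave 4 to 28 members and 9252 to 13164 genes against T0, 2 to 28 and 6676 to 10107 at 6 h, 4 to 22 and 4327 to 8755 from 6 h to 12 h, 14 to 25 and 5392 to 10112 from 12 h to 24 h, and 3 to 16 and 6232 to 9202 for the slope. It gave 0 to 2 and 6802 to 9013 for NPA, 20 to 27 and 4059 to 7564 for 4 d against 3 d, 0 to 5 and 7 to 239 for 5 d against 4 d, 10 to 19 and 8661 to 10582 for NPA at 3 d to 5 d, and 40 to 107 genes for the media difference in the 3 d to 4 d step. Read depth is unknown, and 2 libraries a group limit the precision.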
